A study of Mus musculus with 15 samples.

Results

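The 100 protein-coding genes with the most sense small RNA in heterozygous testes were taken from 21615 protein-coding genes, out of 21734 in the small RNA count table and 49585 genes of all kinds in it. Genes were ranked by the summed exon read count over the 3 heterozygous small RNA libraries. Golga2, Unc119b, Kdelr2, Rfx2, mitochondrial genes and genes whose symbol begins with Rpl or Rps were not eligible. The ranking therefore used the heterozygous small RNA values, which are given here as a description. The knockout small RNA libraries and all RNA-seq libraries took no part in it.

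All samples were whole testes of B6D2F1 mice at postnatal day 28. Homozygous mutants (Chr18-/-, here KO) lack both intact copies of a pachytene piRNA locus on chromosome 18, heterozygotes (Chr18+/-, here HET) keep 1, and wild-type controls (Chr18+/+, here WT) keep both. Small RNA was sequenced from 3 KO and 3 HET samples after periodate oxidation and β-elimination, a treatment that blocks the ligation of most RNAs and spares piRNAs, whose 3′ ends are methylated. Strand-specific total RNA-seq covered 3 KO, 3 HET and 3 WT samples. Whether the libraries of a group come from different animals is not stated in the labels, so a p-value reflects the variation among libraries, part of which may be technical.

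PIWI-interacting RNAs (piRNAs) are small RNAs that guide PIWI proteins in germ cells. In the adult mouse testis most of them are pachytene piRNAs, cut from long single-stranded precursor transcripts that are switched on in spermatocytes by the transcription factor MYBL1. Most precursors are noncoding, but some mRNAs, often through their 3′ untranslated regions, are also cut into piRNAs, in the same sense as the mRNA.

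Small RNA libraries held 1446726, 1275655 and 1122409 counted reads in KO, and 1861402, 939641 and 1161653 in HET. RNA-seq libraries held 25783931 to 29205925 read pairs in KO, 28639855 to 41513634 in HET and 21684791 to 36936068 in WT. The transcript of the deleted locus, the annotated precursor 18_qE1_36451_1, had 4, 6 and 3 read pairs in KO, 8948, 3983 and 4422 in HET, and 9595, 7283 and 5609 in WT. The KO RNA-seq libraries thus matched their label. These counts, not scaled for depth, overlap between HET and WT and alone do not check those labels. The HET library with 8948 held 41513634 read pairs in all, and the WT library with 5609 held 21684791. Levels of this precursor scaled for depth were not compared. The small RNA table has no precursor entry to check in this way. Of the genes left out by the ranking rule, Unc119b had 100, 63 and 46 small RNA reads in KO libraries and 491, 369 and 374 in HET libraries.

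HET small RNA library 1 stood apart. Over all genes, the chi-square statistic of its counts against those of HET libraries 2 and 3, divided by the degrees of freedom, was 25.7 and 27.2, against 2.11 between libraries 2 and 3, and 3.34 to 4.39 among the KO libraries. Results that rest on it are given with and without it. Among the RNA-seq libraries, WT library 1 differed most from its group, with 47.6 and 50.7 against 3.12 between the other WT libraries.

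The 100 genes held 799918 small RNA reads in KO and 774470 in HET. This was 62.9% of the reads of all protein-coding genes in KO and 60.3% in HET. As a share of the whole library it was 21.1, 20.6 and 20.6% in the KO libraries, and 19.8, 19.4 and 19.2% in the HET libraries. The reads were concentrated in few genes. The first 6 genes carried 51.8% of the members' reads in KO and 51.5% in HET, and the first 20 carried 78.1% in KO and 77.2% in HET.

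The 6 genes at the top are given in order of HET reads. 1700006A11Rik (chr3:124400989-124426040, minus strand, mm10) has no assigned role in the files. It had 33239, 27764 and 24486 small RNA reads in KO libraries, and 41438, 18451 and 23434 in HET libraries. Cbl (chr9:44142976-44234049, minus strand), an E3 ubiquitin ligase that acts on receptor tyrosine kinases, had 33584, 29384 and 26679 reads in KO and 41226, 19236 and 22509 in HET. Tbl2 (chr5:135149657-135165760, plus strand), a protein with WD repeats, had 27589, 27005 and 20999 reads in KO and 34890, 18173 and 23198 in HET. HET library 1, also the deepest, had the highest count for each of these genes.

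Nemp1 (chr10:127666901-127701049, plus strand), which encodes a protein of the inner nuclear membrane, had 26050, 23754 and 21265 reads in KO and 33415, 13380 and 15675 in HET. Ago2 (chr15:73095844-73184840, minus strand), the Argonaute protein that cuts targets of microRNAs and siRNAs, had 18810, 16590 and 14936 reads in KO and 22925, 12198 and 15636 in HET. Asb1 (chr1:91540544-91559589, plus strand), a SOCS-box protein, had 15813, 13767 and 12264 reads in KO and 21029, 9926 and 12292 in HET. The next genes included, in order, Wdfy3 (a large scaffold protein of selective autophagy), Arhgap20 (a GTPase-activating protein), Kctd7, 4933414I15Rik, Ddx19b (an RNA helicase of mRNA export), Pou6f1 (a POU-domain transcription factor), Nr2c2 (the orphan nuclear receptor TR4), Ccdc117, Strbp (a double-stranded RNA-binding protein of spermatids), Cdc42ep3 (an effector of the GTPase Cdc42), Zfp652, Fam206a and Elfn2. The values ran down without a gap at the limit. The last members, Tgoln1, Ttbk2 and Pofut1, had 1217, 1183 and 1175 HET reads, and Desi1, Wipi2 and Tef, the next genes outside, had 1134, 1113 and 1112.

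Members overlapped annotated piRNA precursors far more often than protein-coding genes in general. Of the 100 members, 55 overlapped at least 1 base of an annotated precursor on the same strand, against 129 of all 21734 protein-coding genes, or 0.594%. All 20 of the first 20 members did so, and 35 of the 80 members ranked below them. Opposite-strand overlap was found for 0 members, and for 36 of all protein-coding genes. Many precursors in the deposited annotation carry a gene symbol (pi_Cbl_2, pi_Kctd7_1), and how the set was built is not given in the sources used here, so this overlap is not independent of small RNA abundance. The 55 members with a precursor held 89.2% of the members' reads in KO and 88.9% in HET. Their HET sums had a median of 3501 reads, against 1705 for the 45 members without one, of which Snrpb was the highest.

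Precursors mostly began where the gene began. The median distance between the gene start and the nearest precursor start was 37 bases, and 42 of the 55 members had a precursor start within 200 bases. In Pou6f1, Elfn2 and Tacc1 the precursor began 19750, 47581 and 52708 bases inside the gene. In Ipmk and Mlc1 it began upstream, at positions -2851 and -3670 relative to the gene start.

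Because gene and precursor shared a start, the promoter sequences of the 4 highest members with a start within this window and a RefSeq entry are shown here, from 250 bases before to 50 after the RefSeq gene start, build GRCm38.p6, each written on the strand of its gene. Capitals mark CAGTT or its reverse complement AACTG, a core of the sequence bound by MYB proteins. The windows are chr9:44233997-44234296 (minus) for Cbl, chr5:135149436-135149735 (plus) for Tbl2, chr1:91540315-91540614 (plus) for Asb1 and chr9:51765101-51765400 (plus) for Arhgap20.
Cbl: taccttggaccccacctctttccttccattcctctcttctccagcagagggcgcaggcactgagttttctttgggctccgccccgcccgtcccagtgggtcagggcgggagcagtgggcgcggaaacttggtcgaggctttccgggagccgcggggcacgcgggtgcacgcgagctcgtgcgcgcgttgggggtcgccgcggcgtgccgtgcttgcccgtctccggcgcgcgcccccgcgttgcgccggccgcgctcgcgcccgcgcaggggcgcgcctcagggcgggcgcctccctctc
Tbl2: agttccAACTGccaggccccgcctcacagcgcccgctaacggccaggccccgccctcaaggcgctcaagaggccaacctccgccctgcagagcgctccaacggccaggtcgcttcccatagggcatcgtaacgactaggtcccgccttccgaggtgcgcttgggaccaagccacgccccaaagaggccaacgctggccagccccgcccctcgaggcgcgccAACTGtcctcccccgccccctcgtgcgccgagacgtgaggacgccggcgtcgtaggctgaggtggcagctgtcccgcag
Asb1: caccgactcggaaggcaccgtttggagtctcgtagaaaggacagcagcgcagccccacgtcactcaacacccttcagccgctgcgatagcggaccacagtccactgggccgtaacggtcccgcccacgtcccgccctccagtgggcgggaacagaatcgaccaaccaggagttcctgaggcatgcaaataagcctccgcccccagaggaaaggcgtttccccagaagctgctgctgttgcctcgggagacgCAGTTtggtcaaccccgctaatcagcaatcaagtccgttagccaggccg
Arhgap20: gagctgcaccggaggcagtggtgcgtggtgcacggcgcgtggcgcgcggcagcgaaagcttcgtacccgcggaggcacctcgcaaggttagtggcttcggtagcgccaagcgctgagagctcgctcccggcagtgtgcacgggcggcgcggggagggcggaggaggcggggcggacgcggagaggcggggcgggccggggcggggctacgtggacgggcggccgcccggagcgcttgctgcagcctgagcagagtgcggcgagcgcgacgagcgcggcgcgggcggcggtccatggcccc
The nearest precursor started 50 bases downstream of the RefSeq start of Cbl, 6 of Tbl2 and 131 of Asb1, and at the RefSeq start of Arhgap20 (distance 0). The motif occurred 2 times in the Tbl2 window, 1 time in the Asb1 window and 0 times in the other two. A promoter was found for 79 of the 100 members. The motif, on either strand, was in 24 of 44 windows of members with a precursor (54.5%), in 9 of 35 windows of members without one (25.7%), and in 14718 of all 32851 windows of 300 bases in the table (44.8%). A match to 5 letters is a description and not a binding site.

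No member's small RNA was called different between KO and HET in the main test, with all libraries and the filter on low counts. Levels below are scaled CPM, read counts per 1e6 reads of the library after scaling. With all 6 libraries, 0 of the 100 members passed an adjusted p of 0.05 in the edgeR quasi-likelihood test, where 0.0279% of the 3581 genes tested passed. At an unadjusted p under 0.05, 15 members stood out, against 8.71% of all genes. By the rule the members have high counts, which make a change of a given size easier to call. The shares over all genes are not matched for count. DESeq2 also called 0 members, and edgeR with no filter called 1, Slc43a2. In simulated counts with 1 common spread for all genes and 200 changed genes, the edgeR test called 7.46% of genes changed 1.5-fold. It called 38.8% of those changed 2-fold and 93.9% of those changed 3-fold. Spread and counts were not matched to the members, so these rates are not those of the members. A member that was not called is not thereby shown to be unchanged. The median log2 fold change of KO over HET was 0.13 for the members and -0.01 for all genes tested. With no scaling the median of the members was 0.06. The KO mean was between 80 and 120% of the HET mean for 65 members, with extremes of 50.3 and 159.7%. All 100 members passed the filter on low counts. Because HET reads chose the members, genes high in HET by chance were favoured. Choosing the 100 genes by KO reads kept 94 of them and gave a median of 0.16. That choice in turn favours genes high in KO by chance. Choosing by all 6 libraries gave a median of 0.15.

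**Figure D1:**
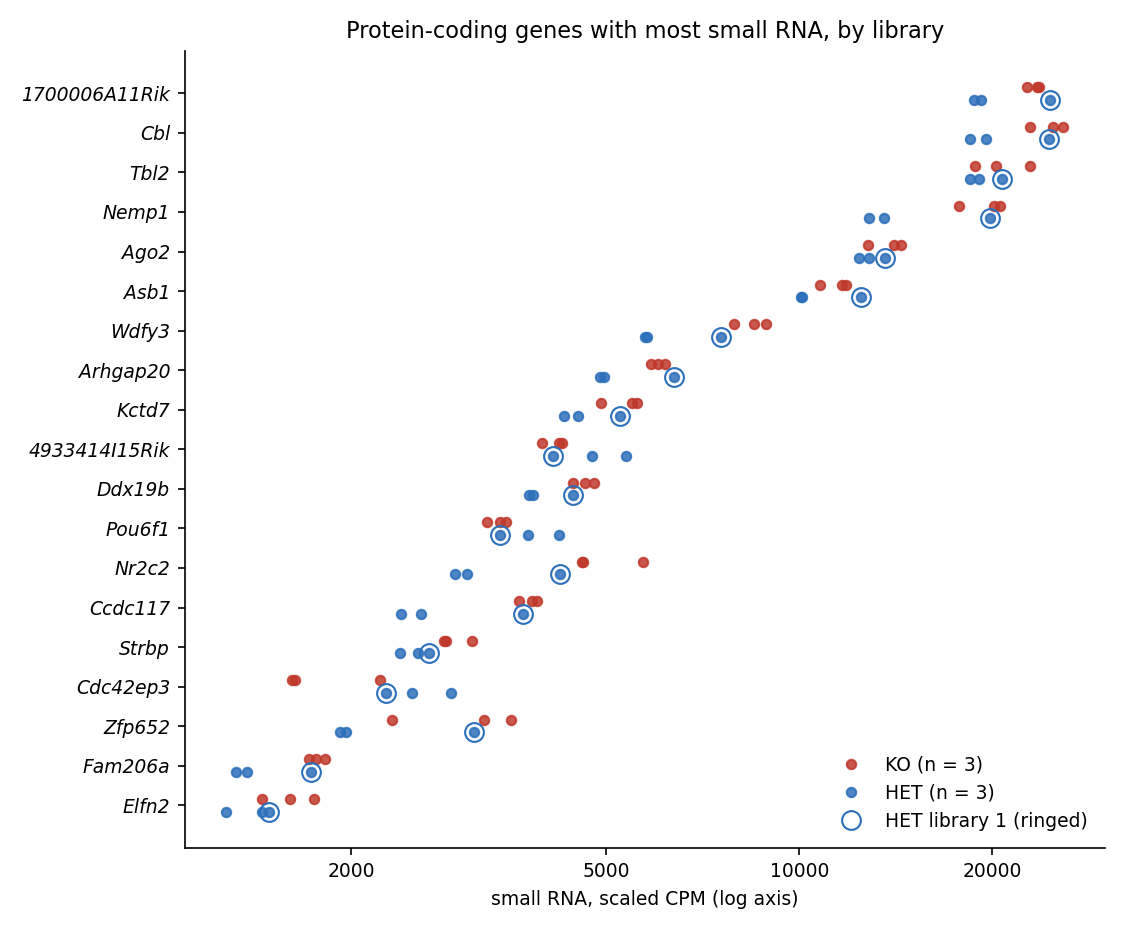
Scaled small RNA CPM (log axis) of 19 of the first 20 members in each of the 3 KO libraries (red) and 3 HET libraries (blue), with HET library 1 ringed. For 1700006A11Rik the ringed library reads 24586 CPM, beside 22626 to 23642 CPM in KO and 18717 and 19225 CPM in the other HET libraries.

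In scaled CPM, HET library 1 lay nearer to the KO libraries than to its own group for many of the highest genes. The plot of these members by library shows this. The scaling factors were 0.927 for HET library 1, 1.077 for HET libraries 2 and 3, and 0.943 to 1.041 in KO. A lower factor gives a higher scaled CPM, so scaling raised HET library 1 relative to the other HET libraries. Cbl had 22861, 24865 and 25759 CPM in KO, against 24461, 19513 and 18466 CPM in HET libraries 1 to 3. The log2 fold change of Cbl was 0.23 ± 0.14 (SE, adjusted p = 0.621) with all libraries and 0.37 ± 0.09 (adjusted p = 0.00256) without HET library 1. Nemp1 had 17733, 20101 and 20532 CPM in KO, against 19826, 13573 and 12860 CPM in HET. Its log2 fold change was 0.34 ± 0.18 (adjusted p = 0.583) with all libraries and 0.56 ± 0.09 (adjusted p = 1.9e-05) without HET library 1. Ago2 had 12804, 14038 and 14421 CPM in KO and 13602, 12374 and 12828 CPM in HET, groups that overlap. It did not pass either way, with a log2 fold change of 0.09 ± 0.11 (adjusted p = 0.831) with all libraries and 0.13 ± 0.09 (adjusted p = 0.394) without HET library 1.

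Without HET library 1, 36 of the 100 members passed, against 16.1% of 3835 genes. Of these, 29 were higher in KO, where the share over all genes was 9.26%, and 7 were lower, against 6.83%. Here too the shares over all genes are not matched to the high counts of the members. In each of the 29, HET library 1 also lay above both other HET libraries. In 5 of the 7 it lay below both, on the side of the KO libraries. Among all 100 members it lay above both in 58 and below both in 32. HET libraries 2 and 3 enter both the call and this position, so these counts are no separate support. Members with and without a precursor were both among the calls, with 14 higher and 5 lower of 55, and 15 higher and 2 lower of 45. The median log2 fold change without that library was 0.15 for the members and -0.03 for all genes. Leaving out HET library 2, HET library 3 or any 1 KO library left 0 members called.

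The plainest case of a HET library apart from its group was Snrpb, a core protein of spliceosomal snRNPs. It had 1659, 1799 and 1854 reads in KO, against 4383, 275 and 402 reads in HET libraries 1 to 3. Its log2 fold change was 0.47 ± 0.75 (adjusted p = 0.873) with all libraries and 2.28 ± 0.16 (adjusted p = 3.7e-13) without HET library 1. Snrpb, highest among the members without a precursor, owes most of its HET sum to 1 library.

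Slc43a2, a transporter of neutral amino acids, had the lowest p of the members (1.58e-04) in the comparison with all libraries. It had 451, 474 and 444 CPM in KO, against 827, 869 and 1026 CPM in HET, and the groups did not overlap. The means were 456 ± 15.5 CPM in KO and 907 ± 105 CPM in HET (SD, n = 3 each), and the log2 fold change was -0.99 ± 0.15 (edgeR, adjusted p = 0.188), so Slc43a2 missed the threshold with all libraries and the filter on low counts. With no filter it passed, at -0.95 ± 0.21 (edgeR, adjusted p = 0.00683). Without HET library 1 it passed, at -1.05 ± 0.13 (adjusted p = 1.21e-07), and HET library 1 was the lowest of the 3 HET libraries for this gene. Slc43a2 carries a precursor over its whole body.

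The members next in order of p included genes on either side. Tacc1, a centrosomal coiled-coil protein, had 920, 820 and 860 CPM in KO and 1407, 1148 and 1240 CPM in HET, and a log2 fold change of -0.55 ± 0.15 (edgeR, adjusted p = 0.557). Rc3h1 (Roquin-1, an RNA-binding repressor of mRNAs) had 1267, 1317 and 1405 CPM in KO and 1091, 785 and 779 CPM in HET, with 0.59 ± 0.18. Nr2c2 had 4588, 5710 and 4606 CPM in KO and 4229, 2906 and 3036 CPM in HET, with 0.55 ± 0.18. Neither pair of groups overlapped, and both genes shared the adjusted p of 0.557. Each of these 3 genes passed without HET library 1, Tacc1 at -0.46 ± 0.12 (edgeR, adjusted p = 0.00877), Rc3h1 at 0.76 ± 0.13 (adjusted p = 2.11e-05) and Nr2c2 at 0.74 ± 0.11 (adjusted p = 6.04e-06). Mgat5, a glycosyltransferase that branches N-glycans, had 327, 341 and 381 CPM in KO and 485, 452 and 499 CPM in HET, with -0.45 ± 0.15. Uhmk1, a serine/threonine kinase, had 890, 966 and 803 CPM in KO and 756, 478 and 480 CPM in HET, with 0.63 ± 0.21. Without HET library 1 both passed, Mgat5 at -0.45 ± 0.14 (edgeR, adjusted p = 0.0257) and Uhmk1 at 0.89 ± 0.14 (adjusted p = 6.17e-06). Groups that did not overlap, with KO the higher, were found for 28 members (28%), against 8.41% of all genes tested. With KO the lower they were found for 10 members (10%), against 7.51%. Without HET library 1 the counts were 52 members with KO the higher (52%), against 22.5% of genes tested. With KO the lower they were 20 (20%), against 22.3%. The shares of genes tested are not matched to the high counts of the members.

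**Figure D2:**
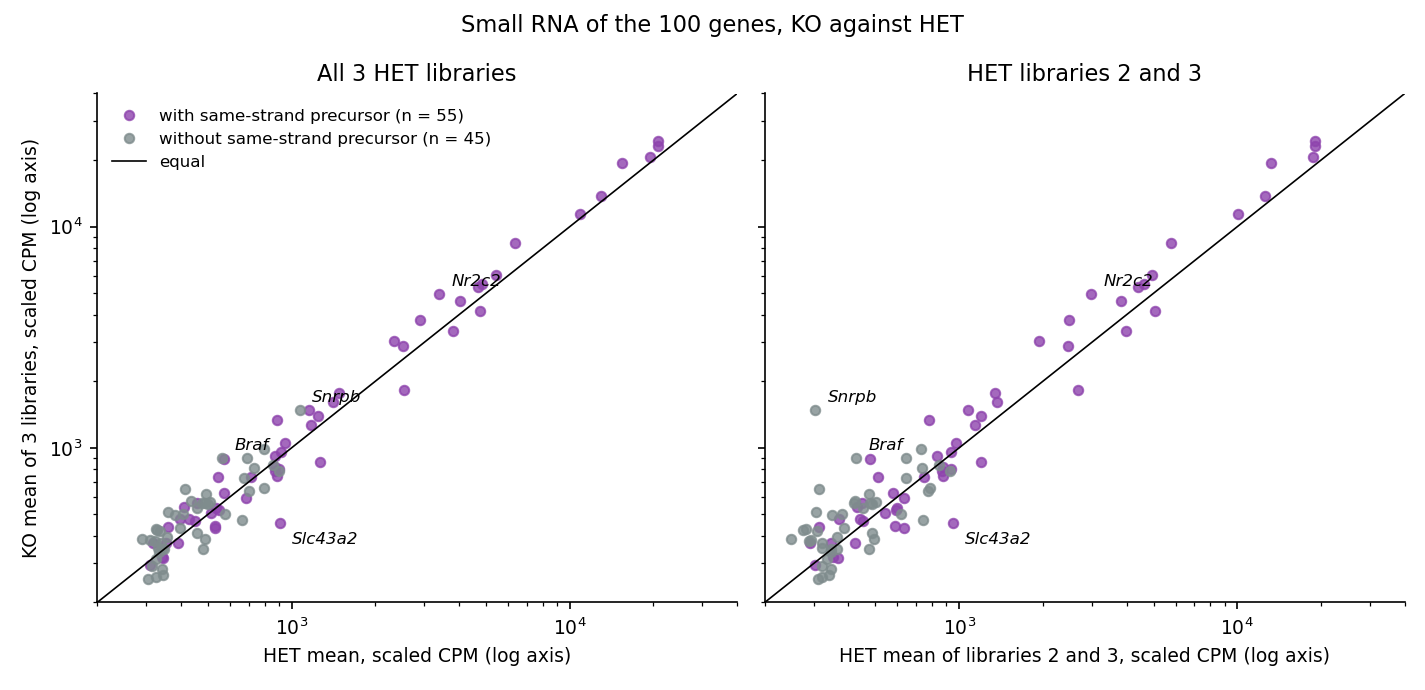
Mean small RNA CPM of each of the 100 members in KO (vertical) against HET (horizontal), both on log axes, with all 3 HET libraries (left) and with HET libraries 2 and 3 (right). The black line marks equal levels. Slc43a2 lies below it in both panels, and Snrpb moves away from it on the right, where its HET mean is 304 CPM against 1070 CPM on the left.

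In RNA-seq, the 55 members with a precursor were largely uncounted. Read pairs that fell in a gene and in a precursor on the same strand belonged to neither in the deposited counts. In 47 of these members at least 97% of the gene body lay under such features. Of the 47, 26 had 0 read pairs in all 9 RNA-seq libraries and 38 had at most 2 in every library, among them Ago2, Wdfy3, Ccdc117, Cbx5 and Fth1, the ferritin heavy chain. The largest count among the 47 was 113, in Cdc42ep3. These zeros follow from the counting and say nothing about expression. All 45 members without a precursor passed the filter on low counts, with a median of 72.5 CPM and a range of 4.97 to 306.6 CPM in HET, and so did 12 members with one.

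**Figure D3:**
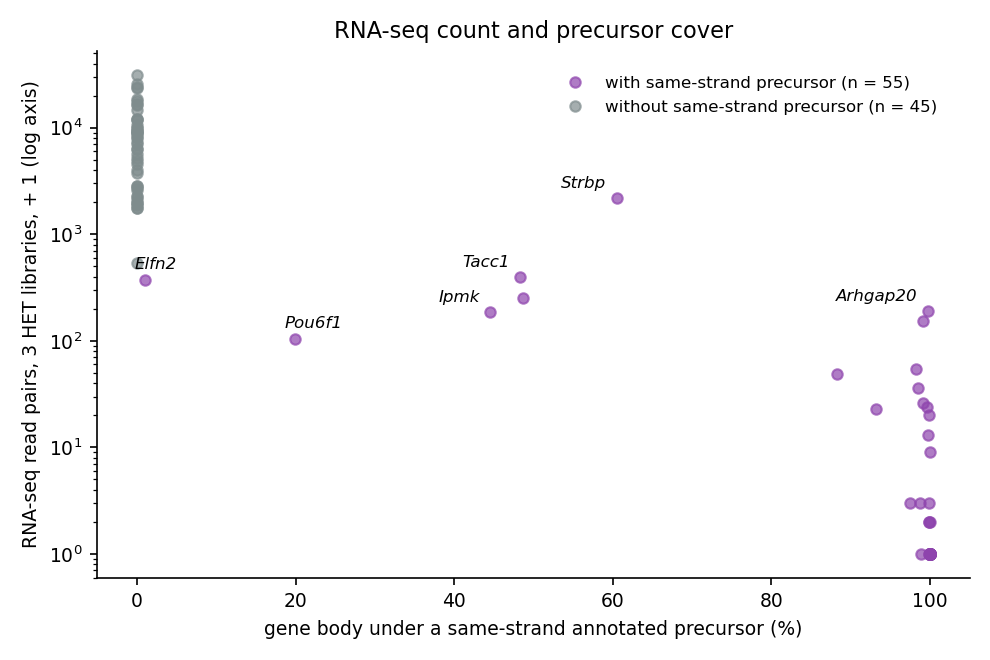
RNA-seq read pairs summed over the 3 HET libraries, plus 1 (log axis), against the share of the gene body under a same-strand precursor (%), for the 100 members. Members without a precursor stand at the left edge, and the 47 members with at least 97% of the body covered include most of those at or near 0.

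Where a precursor extends beyond the gene, part of its transcript was counted under the precursor. Of the 128 precursor entries over members, 11 passed the RNA-seq filter, each with a different member. The largest was pi_Klhl11_1 (chr11:100457124-100472782, minus strand), which runs on past the end of Klhl11. It had 3374, 3748 and 3309 read pairs in KO, 5318, 3344 and 3705 in HET, and 2875, 2519 and 2097 in WT. This is 126 ± 5.91 CPM in KO, 120 ± 7.90 CPM in HET and 92.4 ± 3.43 CPM in WT (SD, n = 3 each). It rose over WT in KO (log2 fold change 0.45 ± 0.09, edgeR adjusted p = 0.00554) and in HET (0.38 ± 0.08, adjusted p = 0.00986), and KO and HET differed by 0.07 ± 0.08 (adjusted p = 1.00). The gene Klhl11 itself, wholly under this precursor, is listed at 0 in all 9 libraries, and its small RNA was 496, 582 and 533 CPM in KO and 412, 725 and 470 CPM in HET.

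The precursor pi_1700006A11Rik_2 also passed against WT in both groups, with 13.9 ± 1.19 CPM in KO, 15.03 ± 3.05 CPM in HET and 9.64 ± 1.84 CPM in WT (SD, n = 3 each). It rose over WT in KO by 0.53 ± 0.17 (edgeR, adjusted p = 0.0464) and in HET by 0.65 ± 0.17 (adjusted p = 0.0188). Without WT library 1 it did not pass in KO (0.38, edgeR adjusted p = 0.146) or in HET (0.51, adjusted p = 0.0648). The precursor pi_Asb1_3 had 9.37 ± 1.76 CPM in KO, 8.43 ± 3.61 CPM in HET and 14.1 ± 0.495 CPM in WT, and did not pass against WT in KO (-0.59 ± 0.27, adjusted p = 0.13) or in HET (-0.76 ± 0.27, adjusted p = 0.0561). The other 8 did not pass in any comparison.

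Among the members whose genes were counted, none passed the RNA-seq test between KO and HET. Of the 57 members tested, 0 passed, against 0.0289% of 20782 features, and 1 reached an unadjusted p under 0.05, against 3.07%. DESeq2 also called 0. That member was Inip, a subunit of the single-stranded DNA-binding complex SOSS, with 22.9, 22.4 and 23.2 CPM in KO, 17.9, 16.9 and 20.3 CPM in HET, and 21.5, 17.1 and 17.0 CPM in WT (KO over HET 0.31 ± 0.11, edgeR adjusted p = 1.00). The median log2 fold change was 0.02 for the members and 0.01 for all features.

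Against WT, members passed in both directions in KO and in HET. In KO, 5 of 57 members passed (8.77%), against 20.8% of features, and the count of members was 10 with DESeq2 and 10 with only the groups compared. Of these, 2 were higher and 3 lower, against 9.68% and 11.1% of features. In HET, 15 of 57 passed (26.3%), against 23.9%. Of these, 7 were higher and 8 lower, against 11.1% and 12.9% of features. Both comparisons share the WT libraries. The medians were 0.00 and -0.02 for members, and -0.01 and 0.00 for all features. Samples also differed in cell markers. Elongating spermatid genes (4 markers) summed to 5605 to 7789 CPM in KO, 3308 to 8819 CPM in HET and 9937 to 10454 CPM in WT. Leydig cell genes (4 markers, 1 of them at 0 throughout) summed to 262 to 397 CPM in KO, 262 to 378 CPM in HET and 626 to 733 CPM in WT. Spermatocyte genes (4 markers) summed to 986 to 1097 CPM in KO, 904 to 1101 CPM in HET and 773 to 817 CPM in WT. Spermatogonia genes (4 markers) summed to 71.5 to 79.6 CPM in KO, 75.8 to 84.6 CPM in HET and 84.8 to 107 CPM in WT. Sertoli cell genes (4 markers) summed to 138 to 164 CPM in KO, 141 to 143 CPM in HET and 122 to 128 CPM in WT. For the marker sets not given here, the HET and WT ranges overlapped. In whole testes, fewer cells of a type and less RNA per cell cannot be told apart, and the part of these shifts in the results against WT was not tested.

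Higher than WT in both groups were Gmfb and Tmed8. Gmfb (glia maturation factor beta, an actin regulator) had 214, 249 and 222 CPM in KO, 242, 224 and 236 CPM in HET, and 169, 191 and 183 CPM in WT. Its log2 fold change over WT was 0.33 ± 0.09 in KO (edgeR, adjusted p = 0.024) and 0.37 ± 0.09 in HET (adjusted p = 0.0148). Tmed8 had 20.04, 21.7 and 20.06 CPM in KO, 21.1, 19.7 and 19.9 CPM in HET, and 15.1, 16.3 and 15.8 CPM in WT, with 0.39 ± 0.09 in KO (adjusted p = 0.0134) and 0.36 ± 0.09 in HET (adjusted p = 0.0161). For neither gene did the WT libraries overlap with the rest. In KO, Gmfb lost its call in 4 of 15 alternatives, among them leaving out WT library 1, and Tmed8 in 1 of 15, without KO library 2.

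Lower than WT in both groups were Ttbk2, Cdkn2c and Arfgap2. Ttbk2, a kinase needed to start ciliogenesis, had 5.42, 3.29 and 3.93 CPM in KO, 6.38, 5.61 and 2.92 CPM in HET, and 10.9, 9.46 and 9.78 CPM in WT. Its log2 fold change was -1.25 ± 0.25 in KO (edgeR, adjusted p = 0.00715) and -1.001 ± 0.25 in HET (adjusted p = 0.0147). Of the Ttbk2 body, 99.6% lies under the annotated span of Cdan1 on the same strand, so these counts come from the remaining 476 bases and pairs that reach into them. Cdkn2c, the cell cycle inhibitor p18, had 103, 90.8 and 87.0 CPM in KO, 98.7, 84.6 and 83.8 CPM in HET, and 126, 118 and 114 CPM in WT (KO -0.35 ± 0.10, HET -0.42 ± 0.10). Arfgap2, a GTPase-activating protein of Golgi vesicle transport, had 50.7, 54.4 and 48.3 CPM in KO, 47.9, 47.9 and 47.4 CPM in HET, and 78.3, 58.8 and 59.7 CPM in WT (KO -0.36 ± 0.11, HET -0.46 ± 0.11). In KO, Arfgap2 had a log2 fold change of -0.21 without WT library 1 (edgeR, adjusted p = 0.107) and lost its call in 5 of 15 alternatives, as did Cdkn2c. In HET, Ttbk2 missed the threshold without WT library 1 (edgeR, adjusted p = 0.0525).

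Another 10 members passed against WT in HET and not in KO, and none of them passed between KO and HET. Both comparisons use the same WT libraries. Strbp showed the largest rise, with 14.98, 17.9 and 20.7 CPM in KO, 20.8, 19.6 and 23.2 CPM in HET, and 9.62, 15.4 and 13.3 CPM in WT. Its log2 fold change over WT was 0.74 ± 0.17 in HET (edgeR, adjusted p = 0.0103) and 0.49 ± 0.17 in KO (adjusted p = 0.057), counted over the part of the gene outside its precursor, which covers 60.5% of the body. Also higher in HET were Tmem170b (0.43 ± 0.11), Pou2f1, the octamer-binding factor Oct-1 (0.32 ± 0.09), Rbm33 (0.26 ± 0.08) and Cdk19, a kinase of the Mediator complex (0.26 ± 0.09). Lower in HET were Zdhhc4 (-0.35 ± 0.10), Sec61a1, the channel subunit of the endoplasmic reticulum translocon (-0.33 ± 0.09), Spint2, a serine protease inhibitor (-0.31 ± 0.09), Ubap1, a subunit of ESCRT-I (-0.29 ± 0.09), and Kctd10, a cullin 3 adaptor (-0.29 ± 0.10). Of the 15 alternatives, Kctd10 lost its call in 12, Cdk19 in 11, Rbm33 in 10 and Ubap1 in 8. Without WT library 1, 5 members passed in HET and 3 in KO. Without HET library 3, 6 passed in HET and 9 in KO, and without HET library 1 or KO library 1, 8 passed in KO. Without KO library 2 or KO library 3, 1 and 2 passed in KO.

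**Figure D4:**
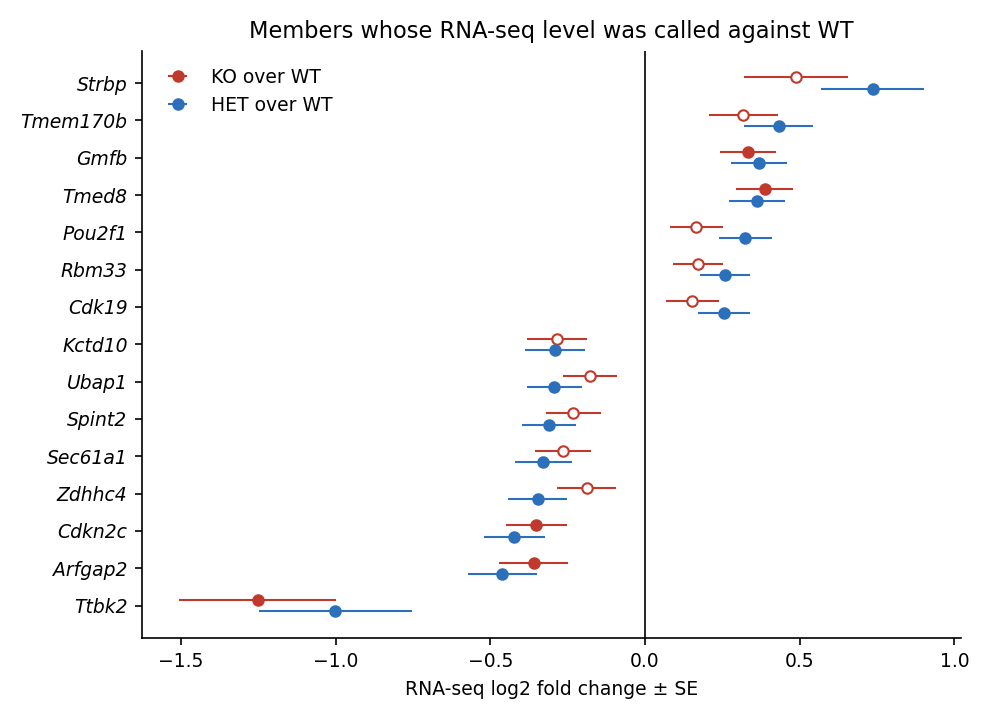
RNA-seq log2 fold change over WT (± SE) of the 15 members that passed in HET, with KO in red above HET in blue. Filled points passed the threshold and open points did not. Ttbk2 lies furthest from 0, at -1.25 in KO and -1.001 in HET.

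RNA-seq levels of the members compared lay mostly above those of other genes that passed the RNA-seq filter. Levels of the same gene could be compared for 44 members. These passed that filter, had no precursor and had under 50% of the body under another same-strand gene. In all, 15627 protein-coding genes met these conditions, so genes that failed the filter are not among the other genes below. In HET, the RNA-seq level of these members per kb of gene body had a median of 1.71 CPM and ranged from 0.306 to 16.6 CPM, against a median of 0.652 CPM for the other genes. The median member stood at percentile 70.3, with 34 members above the middle gene and 10 below it. Members made up 0.282% of the genes compared, and 0 of the 100 genes highest in RNA-seq per kb was a member, a count too small to read. These 100 had a median of 19 HET small RNA reads and at most 825, in Fhl4. Members are the eligible genes with at least 1175 reads, so the rule itself places every other eligible gene below that. Across the 15627 genes compared, the rank correlation of small RNA per exon kb with RNA-seq per body kb was 0.59 in HET. Across the 44 members it was 0.39. Genes share libraries and are not independent replicates.

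The ratio of the HET small RNA level per exon kb to the HET RNA-seq level per gene body kb had a median of 41.2 over the 44 members, against 0.394 for the other genes. The members were chosen by the numerator, and exons are compared with whole gene bodies, so genes with long introns have higher ratios. Over all 57 members that passed the RNA-seq filter, partly covered genes included, the median was 60.7, and 9.22 without division by length. The highest ratio was 362.9, in Ap3s2, a subunit of the AP-3 adaptor complex, which had 152 CPM of small RNA per exon kb and 0.420 CPM of RNA-seq per body kb. Inip (249), Crebl2 (158), Mgat5 (152), Tmem170b (108), Prok2, a secreted prokineticin (98.4), Cdk19 (88.5) and Xrcc2, a protein of recombination repair (83.0), followed. The lowest ratio was 3.16, in Sbno1, with 16.9 CPM of small RNA per exon kb and 5.35 CPM of RNA-seq per body kb. Gmfb (4.38), Sec61a1 (4.49), Tgoln1, a trans-Golgi protein (5.37), and Ssr1, a subunit of the translocon-associated complex (8.05), were next lowest.

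**Figure D5:**
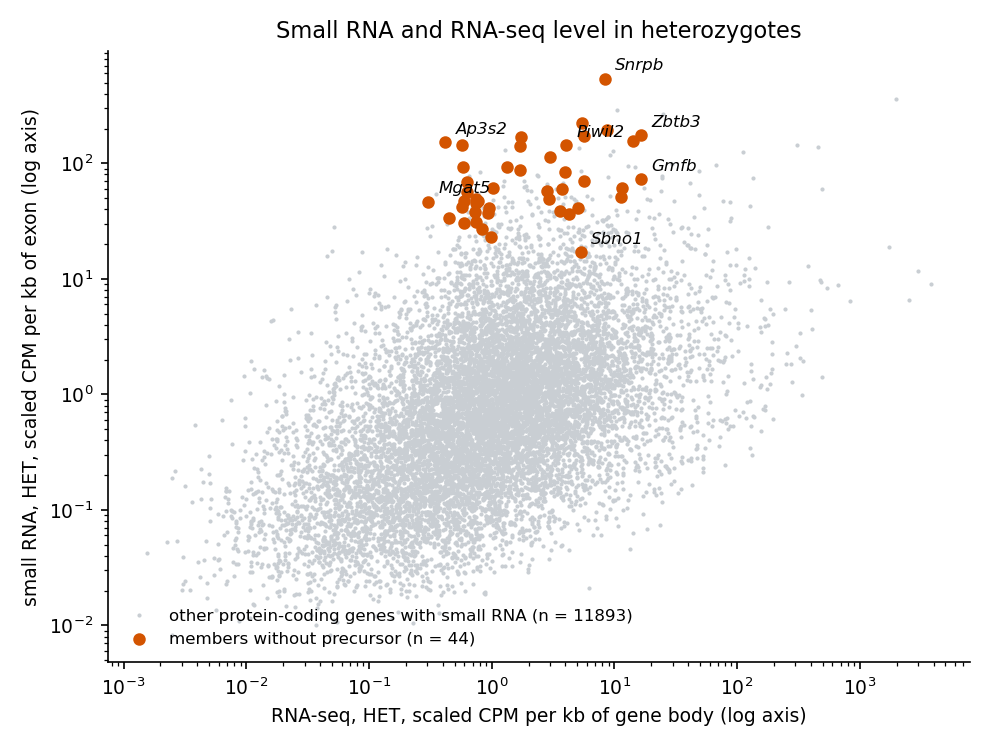
Small RNA per kb of exon against RNA-seq per kb of gene body in HET (scaled CPM, both axes log). Shown are the 44 members compared (orange) and 11893 other protein-coding genes with small RNA that met the same conditions (grey). Members lie high at RNA-seq levels of 0.306 to 16.6 CPM per kb, and none lies further right.

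Of 242 genes found from 8 lists of testis functions, 1 was a member (0.413%), beside 0.463% of all 21615 genes the rule could choose. The member was Piwil2 (MILI), a PIWI protein that itself binds piRNAs, with 885, 837 and 627 small RNA reads in KO and 947, 821 and 875 in HET. Its RNA-seq level was 231, 248 and 231 CPM in KO, 226, 228 and 235 CPM in HET, and 288, 227 and 225 CPM in WT, groups that overlap. The 29 genes found of the piRNA pathway list had a median of 42 HET small RNA reads. Next in it after Piwil2 were Nxf1 (an mRNA export factor) with 122, 86 and 67 reads in KO and 129, 68 and 86 in HET, Exd1 with 71, 67 and 95 in KO and 120, 57 and 80 in HET, and Tdrd1 with 87, 72 and 69 in KO and 100, 48 and 68 in HET. In RNA-seq, 0 of these 29 genes passed between KO and HET, 8 were higher and 1 lower in KO than in WT, and 5 were higher and 1 lower in HET than in WT. Over all features, 9.68% were higher and 11.1% lower in KO, and 11.1% higher and 12.9% lower in HET.

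The late spermatid list (32 genes) had a median of 16 HET small RNA reads, and its highest gene, the sperm lactate dehydrogenase Ldhc, had 153, 126 and 115 in KO and 241, 98 and 137 in HET. In RNA-seq Ldhc averaged 2283 CPM in HET. Of the 31 late spermatid genes tested in RNA-seq, 13 were lower than WT in KO and 19 in HET, with 0 higher in either, where 11.1% of all features were lower in KO and 12.9% in HET. The elongating spermatid markers given above were lower in the same libraries, and their part in these counts was not tested. The tubulin, actin and motor list (28 genes) had a median of 11.5 reads, led by the axonemal dynein Dnah8 with 187, 153 and 101 reads in KO and 193, 52 and 77 in HET. The medians were 12 reads for the ubiquitin and proteasome list (Psmb1 highest), 21 for translation factors (Eif4g2 highest), 25 for the 29 meiotic prophase genes (Tex101 highest), 39 for chaperones (Canx highest), and 43 for RNA binding and granule genes. In RNA-seq, 16 of those 29 meiotic genes were higher than WT in KO with 0 lower, and 16 were higher and 2 lower in HET, where 9.68% of all features were higher in KO and 11.1% in HET. The spermatocyte markers summed to 986 to 1097 CPM in KO, 904 to 1101 CPM in HET and 773 to 817 CPM in WT, and their part in these counts was not tested. In the RNA binding and granule list the RNA helicase Ddx25 was highest, with 215, 157 and 147 reads in KO and 263, 169 and 215 in HET. In RNA-seq against WT, 8 of 28 tubulin, actin and motor genes were lower in KO and 13 in HET, with 3 higher in each. Of 34 translation factors tested, 8 were lower in KO and 14 in HET, with 3 and 2 higher. Of 32 chaperones, 0 were lower in either, with 2 and 1 higher. Of 22 ubiquitin and proteasome genes, 2 and 5 were lower and 6 and 4 higher. Of 33 RNA binding and granule genes, 4 and 3 were lower and 9 and 10 higher. In small RNA, 5 to 21 genes of each of the 8 lists passed the filter on low counts. Of these, 0 passed between KO and HET, where 0.0279% of all genes tested passed.

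Members were long and autosomal. The median summed exon length was 7170 bases, against 3241 for all protein-coding genes. The rule ranked read counts not divided by length, which favours long genes. When small RNA was divided by exon length, 66 of the 100 members were also among the 100 highest genes. None (0) of the 942 X-linked and 183 Y-linked protein-coding genes the rule could choose was a member. The highest X-linked gene, Tmem164, ranked 1483 with 83 HET reads. Chromosome 18 contributed 0 of 503 genes, its highest being Etf1 at rank 116 with 998 reads. By symbol, 3 of 41 Zbtb genes, 2 of 22 Kctd genes, 1 of 36 Klhl genes, 2 of 16 Pou genes and 3 of 394 Zfp genes were members. Over all eligible genes the share was 0.463% (100 of 21615), and counts this small are given as values only.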

How the data were processed

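Small RNA (3 KO, 3 HET) and RNA-seq (3 KO, 3 HET, 3 WT) libraries were grouped by genotype label. The authors deposited raw read counts, made with featureCounts, per the file headers: version 1.6.1 over exons on the sense strand for small RNA, and version 1.6.2 over whole gene bodies for RNA-seq, with GENCODE M12 and, in RNA-seq, 466 piRNA precursors. Neither setting counted a read that fell in more than 1 feature of the strand counted. The submitters' processing notes name cutadapt 1.18, HISAT2 2.1.0 and Bowtie2 2.2.5, with builds mm10 and mm9, without roles. Intron RNA enters the RNA-seq values, and the file that matches the strand of the kit was used.

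Counts were tested with edgeR 4.0.16 in R 4.3.3 (filterByExpr, TMM scaling, quasi-likelihood test, Benjamini-Hochberg threshold 0.05 over all features), 1 fit for the 6 small RNA libraries and 1 for the 9 RNA-seq libraries. An adjusted p without another name is from this test, and SE is the log2 fold change divided by the root of F. CPM were computed with scaled library sizes. DESeq2 1.42.0, RLE scaling, no scaling, no filter, both strands, only the groups compared, each library left out, a replicate block and other choices of members were alternatives. The scripts were tested on simulated data. Overlaps with precursors and gene bodies used mm10 coordinates, biotypes came from GENCODE M21, and promoters came from RefSeq (GRCm38.p6).

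The members and gene lists were chosen with earlier results of these data known. Named genes are the 20 highest members, of which 1 is not reported by name here, 3 on either side of the limit, members that passed (in RNA-seq up to 6 in each direction), the 8 highest and 5 lowest ratios, members with a precursor, and list genes with most small RNA. Kctd10, Ubap1 and Cdk19, the small RNA genes named by lowest p, Snrpb and the precursor entries were chosen after their values were seen.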

Additional observations from a re-analysis of the deposited data

How the results depend on the processing

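The count of members called between KO and HET in small RNA was 0 with all libraries and 0 to 36 when each library was left out in turn, 36 without HET library 1 and 0 otherwise. With no filter it was 1, Slc43a2. RLE scaling, no scaling, DESeq2 and members chosen by KO reads, by all 6 libraries, by mean CPM or (chosen after seeing the data) by HET libraries 2 and 3 gave 0. The replicate numbers did not pair the small RNA libraries (correlations of same-numbered deviations -0.16, 0.00 and -0.09), and the replicate block gave 0 members called. In RNA-seq, KO against HET gave 0 under every alternative run. KO against WT gave 5, and 10 with no filter, with both strands summed, with only the groups compared and with DESeq2, and 1 to 9 when each library was left out. HET against WT gave 15, 9 with only the groups compared, and 5 to 17 when each library was left out; with no scaling 10 of 13 were higher. Of the named members, Strbp, Gmfb, Tmed8, Arfgap2 and Cdkn2c kept their call against WT in HET in all 15 alternatives, and Ttbk2 in KO in all 15. In KO, Arfgap2 and Cdkn2c lost their call in 5 of 15, Gmfb in 4 and Tmed8 in 1. In HET, Kctd10 lost it in 12, Cdk19 in 11, Rbm33 in 10, Ubap1 in 8, Zdhhc4 in 5, Sec61a1 and Spint2 in 4, Tmem170b and Pou2f1 in 2 and Ttbk2 in 1. The precursor pi_Klhl11_1 kept both calls in all 15, and pi_1700006A11Rik_2 lost its call in 7 in KO and 3 in HET. For the members and precursors named in this paragraph, no sign changed under these alternatives. The median ratio of small RNA to RNA-seq over 57 members was 60.7. It was 9.22 without division by length, 41.2 over the 44 members outside other features (chosen after seeing the data), and 52.9 to 64.6 when each HET library was left out. For effects that moved with a setting, the cause was not tested, apart from settings that by construction entered fewer genes or samples. The last members had 219 to 631 small RNA reads per HET library.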
